A study of Mus musculus with 7 samples.

Results

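Serotonin receptors of the mouse hypothalamus were examined through 17 probe sets, out of 45037 tested on the array. The set was defined as every probe set that the array annotation assigns to 1 symbol only, that symbol being 1 of 10 receptor genes. Of these, 9 had such a probe set: Htr1a, Htr1b, Htr4, Htr5a, Htr2c and Htr7 had a pair each, Htr1d had 3, and Htr2b and Htr6 had 1 each. No probe set used here carried Htr2a alone, and Htr2a was not analysed. The samples were 3 hypothalami labelled Creb-PomcCre-/-, in which a Cre driven by Pomc removes Creb, and 4 labelled wild type, all dissected at 3 months of age and each read on its own mouse430_2 array. The labels give no sex and no strain, and do not say whether a sample pools several mice. The Cre acts in Pomc neurons of the arcuate nucleus, and the arrays read the whole hypothalamus, so that fewer cells of a type and less RNA per cell cannot be told apart.

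Serotonin is released in the hypothalamus by axons of neurons whose cell bodies lie in the raphe nuclei of the brainstem, and it curbs appetite. Most of its receptors are coupled to G proteins. The Htr1 and Htr5 receptors act through Gi/o proteins, which lower cyclic AMP, the Htr2 receptors through Gq proteins, which raise inositol phosphates and calcium, and Htr4, Htr6 and Htr7 through Gs proteins, which raise cyclic AMP. CREB is a transcription factor activated downstream of cyclic AMP. Htr2c on Pomc neurons and Htr1b on the neighbouring Agrp neurons are the best known links between serotonin and the melanocortin circuit. The comparison of genotypes asks which hypothalamic transcripts depend on Creb in the Pomc cells.

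Htr2c gave the highest signal of the 9 receptors, followed by Htr1b, Htr7 and Htr1a, and the signals of Htr6 and Htr2b were the lowest. No receptor passed the test between genotypes. Of the 17 probe sets 11 read higher and 6 lower in the knockout, with log2 differences between -0.065 and 0.26. The number past the threshold was 0 (limma over all probe sets, adjusted p under 0.05), where 0.00666% of all probe sets passed, and adjusted p-values ran from 0.397 to 0.992. An unadjusted p under 0.05 was reached by 1 of the 17, a probe set of Htr1d that was higher, against 10.6% of all probe sets, of which 5.55% were higher. All values below are log2 expression values as deposited, and all differences are knockout minus wild type.

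The targeted gene and the Cre driver were read first. Creb1 averaged 9.45 ± 0.027 (SD, n = 3) in knockout and 9.49 ± 0.083 (SD, n = 4) in wild-type hypothalami, and Pomc averaged 9.88 ± 0.36 and 9.67 ± 0.45, and neither passed over all genes (limma, adjusted p = 0.787 and 0.765). Pomc neurons are a small part of the tissue, so that neither value tests the labels. Of the hypothalamic markers, Pmch read 13.66 to 13.97 and Hcrt 12.02 to 12.78 over the arrays, which is among the brightest of the list. The dimmest were Nkx2-1, at 5.50 to 5.80, and Nr5a1, at 6.41 to 7.01. Arrays correlated with each other at r of 0.994 to 0.997 over all probe sets. Xist and 3 Y-linked transcripts put 2 of the knockout and 2 of the wild-type arrays with males, and 1 knockout and 2 wild-type arrays with females. Wild-type arrays 2 and 3 stood apart by tissue markers: the thalamic marker score, the median deviation of the list from its mean over arrays, was 1.01 in wild-type array 2, and the meningeal score was 1.12 in wild-type array 3. Over the other arrays these scores ran from -0.65 to 0.35 and from -0.40 to 0.35. Markers were also counted by genotype, where 51.5% of genes were higher in the knockout. Of 14 hypothalamic markers 12 were higher and 2 lower (median 0.13). Of 13 thalamic markers 12 were lower and 1 higher (median -0.44), and of 15 meningeal markers 13 were lower and 2 higher (median -0.65). These counts do not separate the genotypes by array. The meningeal score ran from -0.40 to -0.31 in knockout arrays, and wild-type arrays 1 and 4, at -0.35 and -0.32, lay within that range. The thalamic score ran from -0.63 to 0.28 in knockout and from -0.65 to 1.01 in wild-type arrays. The hypothalamic score ran from -0.020 to 0.12 and from -0.28 to 0.15. None of these markers passed (limma), and their part in the receptor differences was not tested.

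Sequences before the transcript start were searched for the cyclic AMP response element to which CREB binds. The motif was the full palindrome TGACGTCA, which reads the same on both strands. RefSeq windows (GRCm38.p6) of 250 bases before a start were used for 8 of the 10 receptor genes, Htr2a included, and those of Htr4 and Htr7 were not used here, which left 10 windows. No window held the element, which 1.55% of 32851 windows of all genes held. The absence of a match says only that these letters are not in the window. The bases before the first annotated start are shown for Htr2c and Htr1b, the brightest receptors, and for Htr1d, which had the largest difference, in lower case since no motif was found to mark.
Htr2c, chrX:146962263-146962463, plus strand: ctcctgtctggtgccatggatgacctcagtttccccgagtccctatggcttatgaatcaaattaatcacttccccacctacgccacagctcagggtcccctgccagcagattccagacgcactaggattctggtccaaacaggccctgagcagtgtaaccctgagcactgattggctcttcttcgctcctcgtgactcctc
Htr1b, chr9:81633833-81634082, minus strand: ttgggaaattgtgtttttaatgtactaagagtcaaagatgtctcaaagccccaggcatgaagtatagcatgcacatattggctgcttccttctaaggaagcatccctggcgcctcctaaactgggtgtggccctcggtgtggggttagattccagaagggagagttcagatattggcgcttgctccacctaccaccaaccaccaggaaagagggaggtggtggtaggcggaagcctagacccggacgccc
Htr1d, chr4:136423274-136423521, plus strand: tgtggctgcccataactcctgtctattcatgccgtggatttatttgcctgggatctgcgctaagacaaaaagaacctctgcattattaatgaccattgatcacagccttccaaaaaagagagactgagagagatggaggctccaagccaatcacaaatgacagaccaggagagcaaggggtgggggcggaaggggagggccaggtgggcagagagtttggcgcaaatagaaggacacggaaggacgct

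Receptors were ordered by the mean signal of the brightest probe set of each gene over the 7 arrays. Htr2c read 10.99 ± 0.14 (SD, n = 7), which is at the 93.0 percentile of 18193 genes. Htr1b followed at 8.67 ± 0.076, Htr7 at 8.06 ± 0.14 and Htr1a at 7.49 ± 0.065, at percentiles 65.2, 56.6 and 49.2. These 4 receptors kept the same order in every array, with no overlap between the ranges of neighbours. Htr5a, Htr4 and Htr1d came next at 6.59 ± 0.11, 6.57 ± 0.11 and 6.53 ± 0.20, and their ranges overlapped, so that these 3 have no order. Htr6 at 4.61 ± 0.14 and Htr2b at 4.01 ± 0.12 were the dimmest, at percentiles 18.1 and 11.2.

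**Figure D1:**
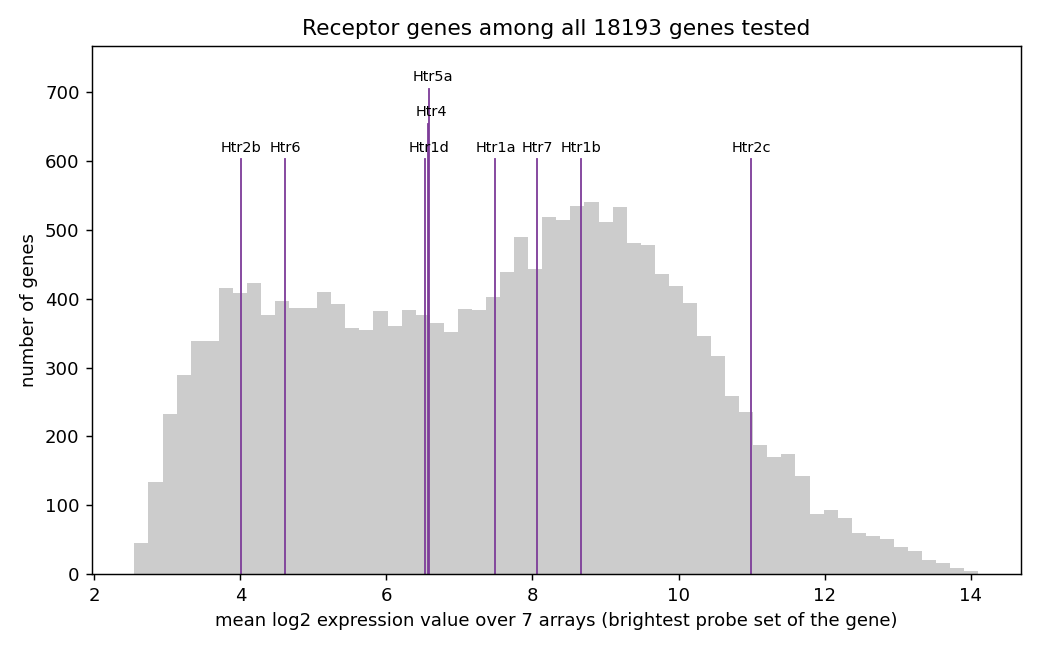
Histogram of the mean log2 expression value of 18193 genes over 7 arrays (x axis, log2; y axis, number of genes), with a line at each of the 9 serotonin receptor genes, each represented by its brightest probe set. Htr2c at 10.99 lies apart from Htr1b, Htr7 and Htr1a, between 7.49 and 8.67, and Htr6 and Htr2b lie under 5.

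The order is one of array signal and not of transcript number, since probe sets differ in how well they bind. In the 7 receptors with several probe sets, the brightest and the dimmest probe set of a gene were apart by 1.57 (Htr1d) to 6.05 (Htr2c) on the log2 scale. The cause of these gaps was not tested. The other Htr2c probe set, 1450477_at, read 4.94, and the other Htr7 probe set, 1422235_at, read 3.81. With the mean of all probe sets of a gene, Htr2c and Htr1b were still first and second, at 7.97 and 7.77, and Htr1a at 6.12 stood above Htr7 at 5.94. Transcripts that should be absent gave a scale for dim values. Y-linked transcripts read 2.75 to 3.76 in the female arrays, and Xist read 5.52 to 6.37 in the male arrays. The means of 8 receptor probe sets, of 7 genes, lay above all of these values. Those of the other 9 lay under the highest Xist value and by this scale cannot be told from background. Among them are the only probe sets of Htr6 and Htr2b, which lay above the Y-linked and under the Xist values. Between these ranges the scale rests on Xist alone.

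Of the Gi/o-coupled receptors, Htr1a is the autoreceptor on serotonin cell bodies and is also found on many target neurons. Its brighter probe set, 1438710_at, read 7.48, 7.60 and 7.51 in knockout arrays 1 to 3, against 7.54, 7.48, 7.40 and 7.44 in wild-type arrays 1 to 4. The groups overlapped, and the difference was 0.066 ± 0.062 (SE), with a 95% interval from -0.074 to 0.21 (limma, adjusted p = 0.729). This was the smallest standard error of the 17. The dim Htr1a probe set, 1450219_at, read 4.65 to 4.95 in knockout and 4.53 to 4.84 in wild-type arrays, and differed by 0.085.

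Htr1b is the release-limiting receptor of serotonin axon terminals and an inhibitory receptor of Agrp neurons. Its brighter probe set, 1442077_at, read 8.63, 8.79 and 8.56 in knockout arrays, against 8.65, 8.64, 8.74 and 8.65 in wild-type arrays. The highest and the lowest value both came from knockout arrays, and the difference was -0.0084 ± 0.064 (SE), with an interval from -0.15 to 0.14 (limma, adjusted p = 0.973). Its other probe set, 1422288_at, read 6.98, 6.90 and 6.98 in knockout arrays, against 6.93, 6.75, 6.75 and 6.78 in wild-type arrays. All knockout values but 1 lay above all wild-type values there, wild-type array 1 being the highest of its group. Its difference, 0.15 ± 0.070 (SE), missed the threshold (limma, adjusted p = 0.494), and the 2 Htr1b probe sets thus differed in sign.

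Htr1d, a close relative of Htr1b that also limits transmitter release, had the largest difference among the receptors. Probe set 1440166_x_at read 5.83, 5.95 and 5.72 in knockout arrays, against 5.42, 5.68, 5.65 and 5.56 in wild-type arrays. All 3 knockout values lay above all 4 wild-type values, the gap between the nearest being small, and both groups lay under the highest value of the absent transcripts. The difference in signal was 0.26 ± 0.091 (SE), with an interval from 0.052 to 0.46, and it did not pass (limma, unadjusted p = 0.0196, adjusted p = 0.397). The suffix x marks a probe set in which some probes also match other sequences. The brightest Htr1d probe set, 1440741_at, read 6.84, 6.69 and 6.33 in knockout arrays, against 6.60, 6.31, 6.56 and 6.41 in wild-type arrays. Its groups overlapped widely and it had the largest SD among the 9 receptors ranked, 0.20. It differed by 0.15 ± 0.13 (SE), by 0.045 once knockout array 1 was left out and by 0.30 once knockout array 3 was. The third, 1422290_at, differed by 0.070, so that all 3 probe sets of Htr1d read higher in the knockout.

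Htr5a, a Gi/o-coupled receptor found mainly in brain, read 6.70, 6.72 and 6.42 in knockout arrays, against 6.58, 6.49, 6.63 and 6.56 in wild-type arrays, by probe set 1443276_at. Knockout array 3 was the lowest of all, and the other knockout arrays were the highest. The difference was 0.049 ± 0.087 (SE), and that of the dim probe set 1422207_at was -0.061 ± 0.13 (SE), the largest standard error of the 17 (limma, adjusted p = 0.868 and 0.891). Over the Gi/o-coupled receptors 7 of 9 probe sets were higher in the knockout, with a median of 0.070, where 53.2% of all probe sets were higher. The Gs-coupled receptors had 3 of 5 higher, with a median of 0.091, and the Gq-coupled had 1 of 3, with a median of -0.0033. These counts take several probe sets of a gene, dim ones included. The 3 medians are the values of dim probe sets, of Htr1d (1422290_at), Htr7 (1422235_at) and Htr2b. By the brightest probe set of each gene, Htr1b, Htr2b, Htr6 and Htr7 were lower and the other receptors higher.

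Of the Gq-coupled receptors, Htr2c is the one through which serotonin excites Pomc neurons, and mice that lack it overeat. Probe set 1435513_at read 11.12, 10.93 and 11.01 in knockout arrays, against 10.93, 11.10, 11.12 and 10.75 in wild-type arrays. The highest and the lowest value were both from wild-type arrays, and the knockout values lay between them. The difference was 0.043 ± 0.088 (SE), with a 95% interval from -0.16 to 0.24, that is 0.898-fold to 1.18-fold (limma, adjusted p = 0.888). It was -0.033 without wild-type array 4, which held the lowest value, and the same with the replicate number as a block over arrays 1 to 3. The other Htr2c probe set read 4.76 to 5.07 in knockout and 4.81 to 5.19 in wild-type arrays and differed by -0.065. Htr2c is also abundant in choroid plexus, and the score of 13 choroid plexus markers ran from -0.12 to -0.022 in knockout and from -0.077 to 0.069 in wild-type arrays. Of these markers only Clic6, Calml4 and Sostdc1, with means of 8.44, 7.09 and 6.39, lay above the highest Xist value in male arrays, 6.37. Ttr averaged 6.22. The score thus rests mostly on dim genes and is a poor measure of choroid plexus content. The part of choroid plexus cells in the Htr2c signal was not tested. Htr2b, a receptor better known from heart valves and vessels, read 3.98, 4.19 and 3.86 in knockout arrays, against 3.93, 4.09, 3.94 and 4.09 in wild-type arrays. Its groups overlapped at a level under that of Xist in male arrays, with a difference of -0.0033 ± 0.091 (SE).

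Of the Gs-coupled receptors, Htr4 is known for its part in feeding and in gut motility. Probe set 1443365_at read 6.59, 6.75 and 6.61 in knockout arrays, against 6.59, 6.41, 6.43 and 6.59 in wild-type arrays. The groups did not overlap, by a margin of under 0.01 between knockout array 1 and wild-type array 1, and the genotypes were apart by 0.15 ± 0.078 (SE), which missed the threshold (limma, unadjusted p = 0.0941, adjusted p = 0.533). The dim probe set 1427654_a_at read 3.64, 3.74 and 3.61 in knockout arrays, against 3.64, 3.67, 3.43 and 3.43 in wild-type arrays, with a difference of 0.13. Values of 2 of the 17 probe sets, 1 of Htr1d and 1 of Htr4, thus did not overlap between genotypes, both being higher in the knockout. Of all probe sets 11.0% did not overlap and 6.02% were so and higher.

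Htr6, a receptor found almost only in brain, read 4.38, 4.56 and 4.79 in knockout arrays, against 4.50, 4.60, 4.74 and 4.70 in wild-type arrays. The knockout arrays held both extremes, and the difference was -0.058 ± 0.11 (SE) at a level under that of Xist in male arrays. Htr7, linked to circadian phase and expressed in hypothalamus and thalamus, read 8.02, 7.93 and 8.15 in knockout arrays, against 7.86, 8.25, 8.09 and 8.14 in wild-type arrays, by probe set 1435332_at. Wild-type arrays held both extremes, and the difference was -0.052 ± 0.095 (SE), with an interval from -0.27 to 0.16 (limma, adjusted p = 0.875). The dim Htr7 probe set went the other way, by 0.091.

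**Figure D2:**
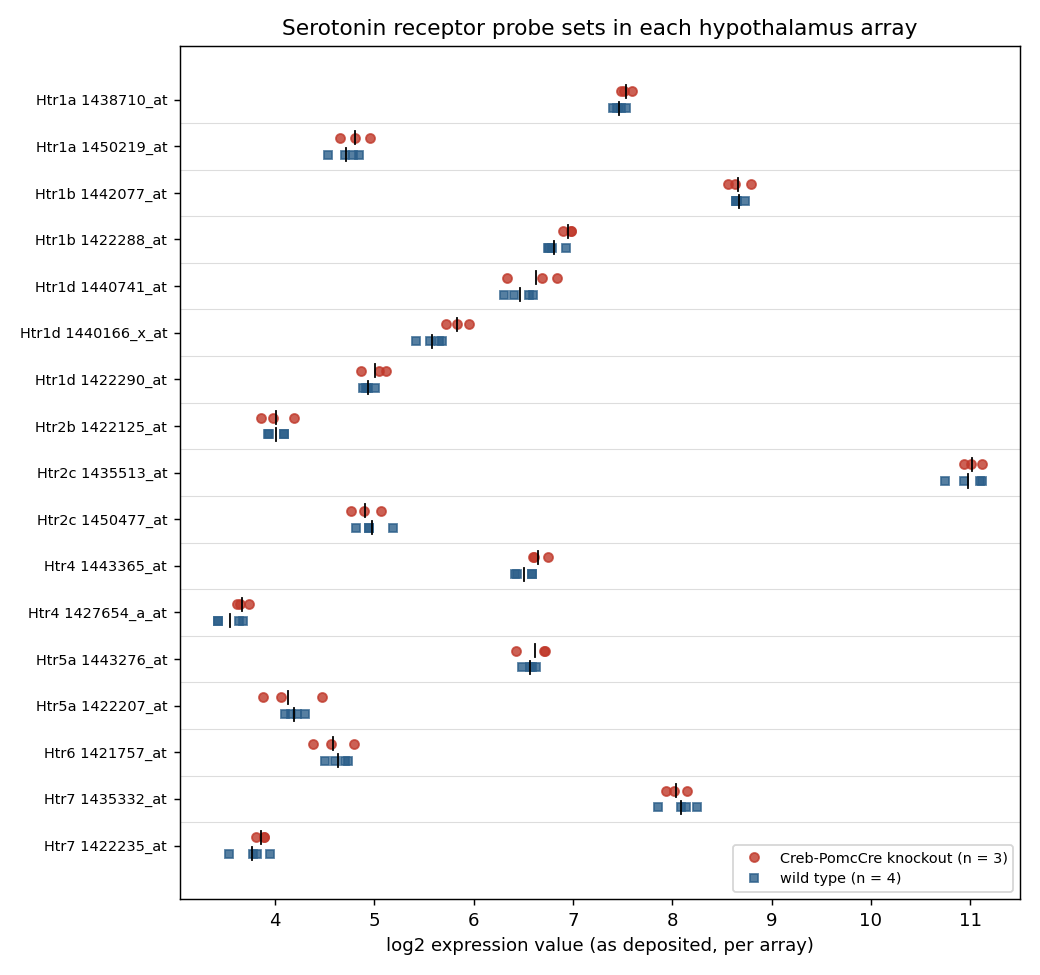
Log2 expression value (x axis, as deposited) of each of the 17 serotonin receptor probe sets in 3 Creb-PomcCre knockout arrays (circles, upper line of each row) and 4 wild-type arrays (squares, lower line). Vertical bars are group means. The groups overlap in every row but those of Htr1d 1440166_x_at and Htr4 1443365_at.

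Over the 8 receptor probe sets above the absent transcripts, the 95% limits of the difference ran from -0.27 (Htr7, 0.831-fold) to 0.44 (Htr1d 1440741_at, 1.36-fold). Of these, Htr1d 1440741_at, Htr4 1443365_at and Htr5a 1443276_at averaged 6.53 to 6.59, near the highest Xist value of 6.37. Htr1d 1440741_at read below that value in some arrays, down to 6.31, so that these 3 intervals bound a change less surely. Of all 17 intervals 16 included 0, and those of the 9 dim probe sets do not bound a change of the transcript. The median difference was 0.066, against 0.0084 over all probe sets tested and 0.024 over the 26985 probe sets with a mean under 7, of which 58.5% read higher in the knockout. Of all probe sets 53.2% read higher. In the fit over genes 5 of the 9 receptors were higher and 4 lower, where 51.5% of genes were higher, and 0 passed (limma, adjusted p from 0.493 to 0.992), where 0.011% of genes passed. No receptor gene had an unadjusted p under 0.05, against 11.7% of genes. Of the 7 genes with several probe sets, 3 (Htr1a, Htr1d and Htr4) had the same sign in each of them, and all of these were higher in the knockout. In each of these genes only the brightest probe set lay above the absent transcripts, so that the agreement rests on dim probe sets.

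**Figure D3:**
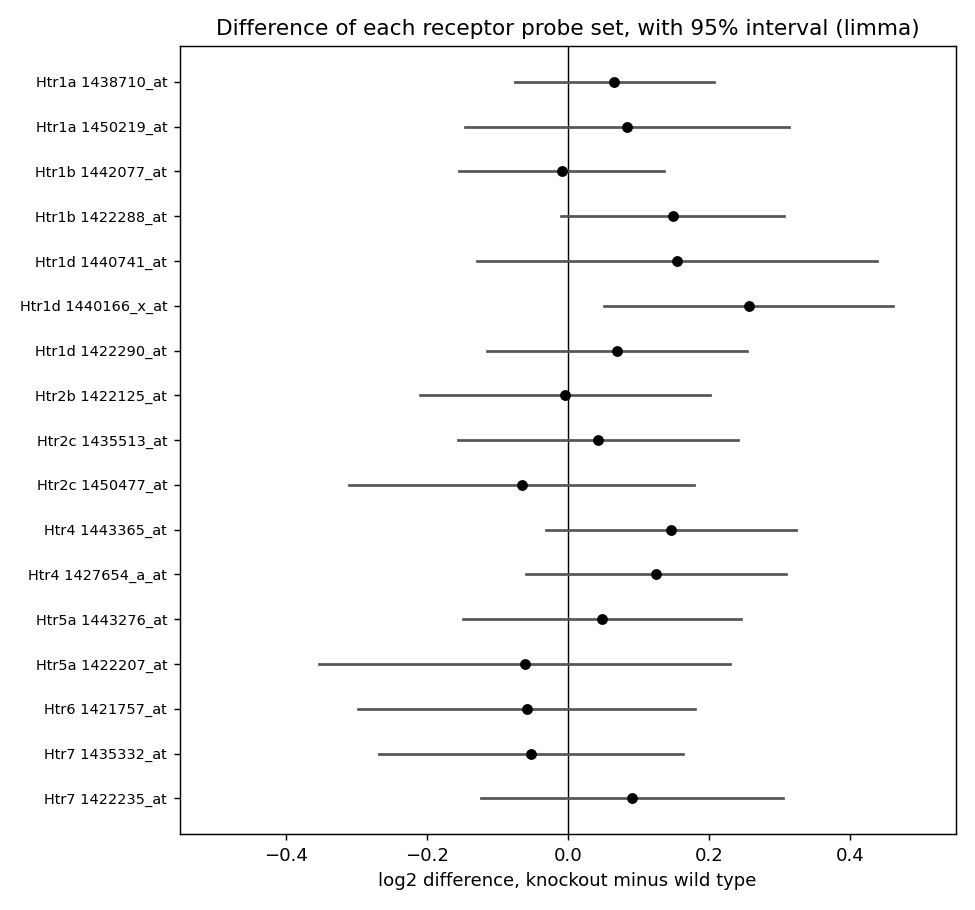
Log2 difference, knockout minus wild type (x axis), of each of the 17 serotonin receptor probe sets, with its 95% interval from limma (3 knockout and 4 wild-type arrays). The points lie between -0.065 and 0.26, and the interval of Htr1d 1440166_x_at, from 0.052 to 0.46, is the only one that leaves out 0.

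The arrays were also compared with each other regardless of genotype, by the 3 brightest receptors and the scores of 11 marker lists, 33 relations in all. Htr7 followed the thalamic and habenular markers most closely. The deviation of Htr7 from its mean was -0.043, -0.13 and 0.086 in knockout arrays and -0.20, 0.19, 0.024 and 0.078 in wild-type arrays, where the thalamic score was -0.63, -0.38 and 0.28 in knockout arrays and -0.65, 1.01, -0.27 and 0.35 in wild-type arrays. Knockout array 3 and wild-type arrays 2 and 4 were the 3 highest by both. Pearson's r was 0.895 and Spearman's rho 0.929 over 7 arrays (exact permutation, two-sided, p = 0.00675 for each), and neither passed over the 33 relations (adjusted p = 0.223 for each). Without wild-type arrays 2 and 4, which lay farthest from the median score, r was 0.79. Htr7 also ran against the hypothalamic markers, with r = -0.832 and rho = -0.857 (exact permutation, p = 0.0143 and 0.0238, adjusted p = 0.223 and 0.393) and r = -0.605 without wild-type arrays 1 and 2. The last of the 3 relations with an unadjusted p under 0.05 for r was that of Htr7 with serotonin neuron markers, with r = -0.797 and rho = -0.607 (exact permutation, p = 0.0202 and 0.167, adjusted p = 0.223 and 0.786). It rested on wild-type arrays 1 and 2, without which r was -0.136. Neither genotype has enough arrays for a value within it. For Htr2c the r with thalamic markers was -0.0609 (exact permutation, p = 0.896, adjusted p = 0.928), and with choroid plexus markers it was 0.51 (exact permutation, p = 0.239, adjusted p = 0.779). Their rho was -0.0714 and 0.429 (exact permutation, p = 0.906 and 0.354, adjusted p = 0.964 for each), and without the 2 arrays farthest from the median score r was 0.00474 and 0.498. The choroid plexus score rests mostly on dim genes. The Htr7 difference was -0.052 as given. Dropping wild-type array 2, the highest by thalamic score, gave 0.0043. Wild-type array 4 was the next highest, and its removal gave -0.033. A value near 0, -0.00043, also came from dropping knockout array 2, where the score was -0.38. Removal of knockout array 3 gave -0.11, and that of wild-type array 1, the lowest by score, gave -0.13. The part of thalamic tissue in the Htr7 difference was not tested.

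**Figure D4:**
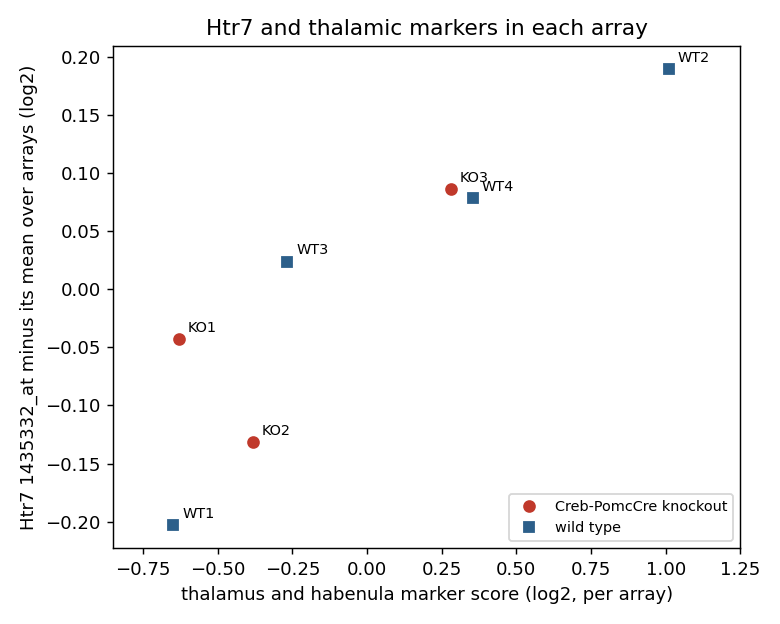
Htr7 (probe set 1435332_at, deviation from its mean over arrays, log2, y axis) against the thalamic and habenular marker score (median deviation of 13 genes, log2, x axis) in 3 knockout arrays (circles) and 4 wild-type arrays (squares). Wild-type array 2 is highest and wild-type array 1 lowest by both measures.

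Genes whose signal was most like that of a receptor were sought among 10252 genes with a mean of at least 7, by Pearson's r over the 7 arrays. These are the highest of many values over few arrays, and have no test. For Htr2c they were Actr3, a subunit of the complex that branches actin filaments, Klhl4 and Tmem268, with r of 0.964, 0.963 and 0.957. For Htr1b they were the small GTPase gene Arf2, Arhgdib and Fbxw8, at 0.986, 0.972 and 0.961. For Htr7 they were Ndrg4, the prolyl endopeptidase gene Prep and Socs6, at 0.977, 0.973 and 0.968. An r over 0.9 was reached by 13 genes with Htr2c, 19 with Htr1b and 53 with Htr7. Leaving out the 2 arrays farthest from the receptor's median gave an r of 0.971, 0.924 and 0.977 for Actr3, Arf2 and Ndrg4, and 0.855 for Fbxw8, the lowest of the 9.

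The genes around the receptors were read from 5 lists. Markers of serotonin cell bodies were mostly dim. Tph2, the enzyme that makes serotonin in neurons, read 3.12 to 3.70 over the arrays, within the Y-linked readings of female arrays. The serotonin transporter Slc6a4 read 5.11 to 5.37, above those and under Xist in male arrays. Gata3 read 3.42 to 3.72, while Lmx1b and Gata2, which other cells also use, read 6.29 to 6.50 and 7.21 to 7.34. Of 15 genes of serotonin synthesis, storage, uptake and breakdown 9 were higher and 6 lower in the knockout, with a median of 0.054, against 0.0036 over all genes, and 0 passed (limma). Unadjusted p-values under 0.05 numbered 0 there, against 11.7% of genes. Closest were Aanat, which turns serotonin toward melatonin, at 0.15 ± 0.068 (SE), Qdpr, which regenerates the cofactor of serotonin synthesis, at 0.054 ± 0.026 (SE), and Maoa, which breaks serotonin down, at 0.090 ± 0.047 (SE). Their adjusted p-values ran from 0.437 to 0.481 (limma). The second Qdpr and Maoa probe sets differed by -0.031 and -0.0071. Averaged over both probe sets Qdpr was at 0.011 and Maoa at 0.042, and Aanat was at 0.096 without wild-type arrays 2 and 3.

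Below the receptors, the Gi/o and Gs list holds G protein subunits, adenylyl cyclases and the potassium channels that Gi/o proteins open. Of its 20 genes 14 were lower in the knockout, with a median of -0.092, and 0 passed (limma). An unadjusted p under 0.05 was reached by 6, all lower, against 6.12% of genes lower at that level. Gnas, the Gs subunit, read 13.58, 13.57 and 13.55 in knockout arrays, against 13.69, 13.67, 13.67 and 13.66 in wild-type arrays, with no overlap, as in 12.1% of genes, and a difference of -0.11 ± 0.021 (SE; limma, adjusted p = 0.207). The adenylyl cyclase genes Adcy5 and Adcy3 differed by -0.18 ± 0.043 (SE) and -0.20 ± 0.049 (SE; limma, adjusted p = 0.261 and 0.267), again with no overlap. Each of these 3 genes had probe sets of both signs. The other Gnas probe sets ran from -0.53 to 0.013, and averaged over its probe sets Gnas was at -0.15 (limma, adjusted p = 0.428). Averaged over their probe sets Adcy5 was at -0.017 and Adcy3 at -0.013, and after averaging the probe sets of each gene 10 of the 20 genes were lower and 2 had an unadjusted p under 0.05. The score of 12 neuron markers ran from -0.060 to -0.025 in the knockout and from -0.016 to 0.088 in wild type, with no overlap, and their part in these values was not tested.

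Of 13 genes of Gq signalling 8 were lower, with a median of -0.020, and 4 had an unadjusted p under 0.05, all lower, against 6.12% of genes lower at that level. That count was 1 without wild-type arrays 2 and 3 and 2 without knockout array 2 or knockout array 3. The Gq subunit gene Gnaq differed by -0.098 ± 0.031 (SE), the calcium release channel gene Itpr2 by -0.24 ± 0.075 (SE) and the phospholipase gene Plcb1 by -0.15 ± 0.052 (SE), with adjusted p-values from 0.313 to 0.35 (limma). Averaged over their probe sets Gnaq was at -0.060, Itpr2 at -0.13 and Plcb1 at 0.039. Of 13 receptor partners and regulators 11 were lower, with a median of -0.052, and 2 had an unadjusted p under 0.05, against 11.7% of genes. Leaving out wild-type array 3 made it 3, and leaving out any of knockout arrays 2 and 3 and wild-type arrays 2 and 4 made it 1. These were S100a10, also called p11, which brings Htr1b and Htr4 to the cell surface, at -0.21 ± 0.071 (SE), and Arrb1, an arrestin that ends receptor signalling, at -0.12 ± 0.048 (SE), and the receptor kinase gene Grk5 followed at -0.21 ± 0.11 (SE; limma, adjusted p = 0.342, 0.403 and 0.496). S100a10 read 9.32, 9.08 and 9.32 in knockout arrays, against 9.54, 9.38, 9.49 and 9.38 in wild-type arrays, with no overlap, and each of its 3 probe sets read lower. With 1 array left out S100a10 ran from -0.25 to -0.13, the latter without knockout array 2. Grk5 was at -0.10 without knockout array 1, at -0.33 without knockout array 2 and at -0.13 averaged over its probe sets.

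The Htr2c transcript is itself edited by the adenosine deaminases Adar and Adarb1, and small nucleolar RNAs made from the Snhg14 transcript of the Prader-Willi region can pair with an Htr2c exon. This short list was chosen with earlier results of these data known. All 4 of its genes were lower in the knockout, where 51.5% of genes were higher, and Snhg14 passed, as did 0.011% of genes. Its brightest probe set read 9.70, 9.59 and 9.99 in knockout arrays, against 10.97, 11.01, 11.15 and 11.08 in wild-type arrays. The difference was -1.29 ± 0.089 (SE), or 0.409-fold (limma, adjusted p = 0.0018), and its other probe sets differed by -0.21 and 0.10. Snhg14 no longer passed once wild-type arrays 2 and 3 were both left out (-1.26; limma, adjusted p = 0.0773) or once its 3 probe sets were averaged (-0.47; limma, adjusted p = 0.149). Adar read 9.81, 9.85 and 9.70 in knockout arrays, against 9.93, 9.93, 9.86 and 9.91 in wild-type arrays, a difference of -0.12 ± 0.046 (SE) lower in each of its 3 probe sets (limma, adjusted p = 0.371). With 1 array left out Adar ran from -0.15 to -0.079, the latter without knockout array 3, and it was at -0.074 averaged over its probe sets. Adarb1 differed by -0.33 ± 0.15 (SE; limma, adjusted p = 0.435), with its highest value, 9.83, in wild-type array 2, where the thalamic score was also highest, and Adarb2 differed by -0.058. With 1 array left out Adarb1 ran from -0.42 to -0.21, the latter without wild-type array 2, and it was at -0.13 averaged over its probe sets. Htr2c itself was at 0.043 and -0.065 by its 2 probe sets, and the arrays read neither its editing nor its splicing here.

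**Figure D5:**
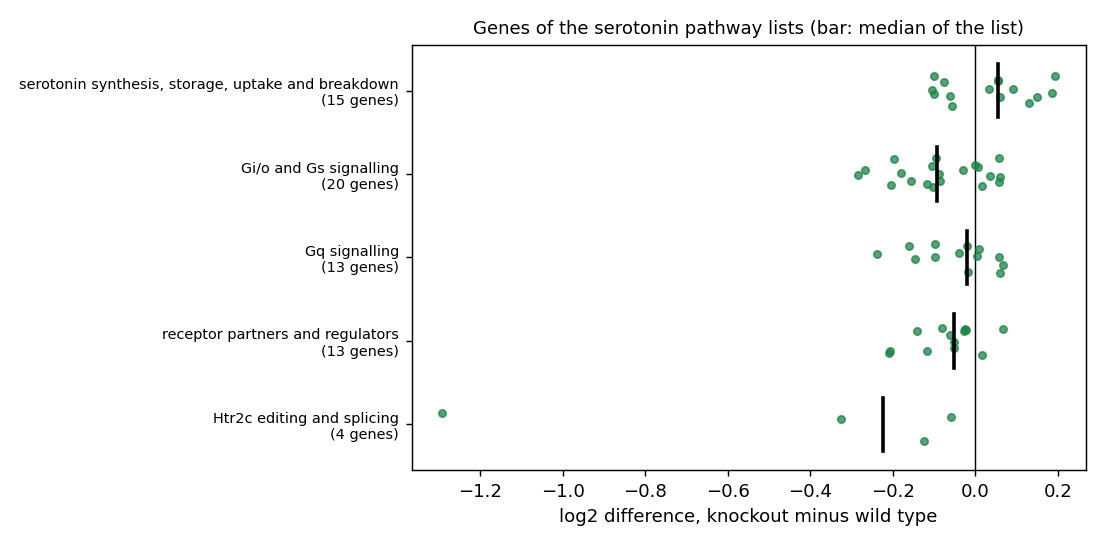
Log2 difference, knockout minus wild type (x axis), of each gene of the 5 serotonin pathway lists (points, spread vertically for legibility), with the median of each list as a bar. Snhg14 at -1.29 is the only gene of these lists past the threshold, and the other genes lie between -0.33 and 0.19.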

How the data were processed

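The deposited values are log2 expression values per probe set, 1 column per sample. The submitters' processing notes list RMA, affy and R 2.10.0 without settings. RMA in general combines background correction, quantile normalization and a summary of the probes, and pulls small differences of dim probe sets toward 0. A detection call was not used. Control probe sets (64 of 45101) were dropped. Genes were named from the platform annotation where a probe set carried 1 symbol (34945). In the fit over genes the probe set with the highest mean stood for each of 18193 genes. Genotypes were compared in R 4.3.3 by limma 3.58.1, with lmFit and an eBayes step that allowed for an intensity trend. Two-sided p-values were adjusted by Benjamini-Hochberg over all probe sets or all genes, with a threshold of 0.05, and intervals are 95% intervals. The fit was tested on simulated data. The receptors, lists and tests were chosen with earlier results of these data known. The lists are described by counts and medians and were given no test.

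Named genes are every receptor probe set, Creb1 and Pomc, the 3 genes with the smallest unadjusted p in each pathway list plus any past the threshold, and the 3 genes most like each of the 3 brightest receptors. The relations to marker scores were added after the data were seen. The labels call the replicates biological. They do not say that arrays with the same number are pairs. Deviations from the group means of such arrays correlated at 0.258, 0.114 and 0.156 for numbers 1 to 3. Arrays with unlike numbers correlated at -0.24 to 0.094. A fit with the replicate block was therefore run as an alternative, and the values reported are from the fit without it. Numbers 1, 2 and 3 also share a sex. Precision is limited by the number of arrays, with a median standard error of 0.091 for receptor probe sets and 0.079 for all probe sets. Plots were made in Python 3.11.15 with matplotlib 3.10.9. Alternatives were a filter on dim probe sets, no intensity trend, array weights, quantile normalization, sex as a covariate, the replicate block, leaving out arrays, and the mean of all probe sets of a gene.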

Additional observations from a re-analysis of the deposited data

Results flagged for a closer look

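Htr1b, probe set 1442077_at, was singled out among the wild-type arrays because 1 array lay far from the others: wild-type array 3 read 8.74, where the other 3 wild-type arrays read 8.64 to 8.65. The gap was 0.95 of the whole range, above Dixon's critical value for 4 samples. The range itself was under 0.1, and chance gives such a flag in about 1 in 20 groups. Of 32 receptor probe sets and named pathway genes examined this way, 1 was singled out.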

How the results depend on the processing

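No receptor probe set or receptor gene passed the threshold under any of the alternatives run (14 for probe sets, 15 for genes). The lowest adjusted p of a receptor probe set was 0.32, for Htr1b 1422288_at without wild-type array 1. The replicate block changed no call on a receptor. Of 229 differences over the 17 probe sets and the alternatives, 205 kept their direction and 24 did not, and 7 probe sets kept it throughout. Receptor probe sets with an unadjusted p under 0.05 numbered 1 as reported, 0 without dim probe sets (mean under 6, which drops 9 of the 17), 2 without the intensity trend, with quantile normalization, with sex as a covariate or without wild-type arrays 2 and 3 together, and 0 to 3 with an array left out (0 without knockout array 2, 3 without knockout array 3, 2 without wild-type array 1). Those without overlap numbered 2, became 1 without dim probe sets or with quantile normalization, and were 2 to 6 on leaving out an array, 6 being without knockout array 3 and 4 without knockout array 2 or wild-type array 1. Those higher in the knockout numbered 11, with 6 of 8 left without dim probe sets and 11 to 14 with an array left out.

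Directions turned as follows. With array weights and with quantile normalization Htr1b 1442077_at was at 0.0011 and 0.012. With the replicate block Htr2b 1422125_at was at 0.023 and Htr2c 1435513_at at -0.033. Without wild-type arrays 2 and 3 together, Htr1a 1450219_at was at -0.016, Htr1b 1442077_at at 0.013, Htr2c 1450477_at at 0.029, Htr7 1435332_at at 0.033 and Htr7 1422235_at at -0.024. With 1 array left out, Htr1b 1442077_at ran from -0.074 to 0.043, Htr2b from -0.093 to 0.073, Htr2c 1435513_at from -0.033 to 0.092, Htr2c 1450477_at from -0.15 to 0.0078, Htr5a 1443276_at from -0.0015 to 0.14, Htr5a 1422207_at from -0.23 to 0.069, Htr6 from -0.17 to 0.039 and Htr7 1435332_at from -0.13 to 0.0043. With the mean of all probe sets of a gene, Htr1b was at 0.070, Htr2c at -0.011, Htr5a at -0.0060, Htr7 at 0.020 and Plcb1 at 0.039, and the levels of Htr2c, Htr1b, Htr7, Htr1a, Htr5a, Htr4 and Htr1d were 7.97, 7.77, 5.94, 6.12, 5.38, 5.08 and 5.73. The causes were not tested. All probe sets past the threshold numbered 3 as reported, 5 with sex as a covariate and 3 to 46 with an array left out (46 without wild-type array 1, 16 without knockout array 1, 12 without wild-type array 2), and all genes numbered 2, 7 with array weights, 1 with the mean of probe sets and 2 to 21 with an array left out (21 without wild-type array 1). List genes with an unadjusted p under 0.05 also moved by over 1.5 times in some settings. Gi/o and Gs signalling had 2 in place of 6 with the mean of probe sets. Gq signalling had 1 in place of 4 without wild-type arrays 2 and 3 together, and 2 to 4 with an array left out. Receptor partners had 1 in place of 2 without the intensity trend, with quantile normalization or with sex as a covariate, and 1 to 3 with an array left out. The editing list had 1 in place of 2 with quantile normalization, with the mean of probe sets or without wild-type arrays 2 and 3 together, 3 with array weights, and 1 to 3 with an array left out (1 without wild-type array 2 or 4, 3 without wild-type array 3). The synthesis list had 3 in place of 0 without wild-type arrays 2 and 3 together, 1 without the intensity trend, with quantile normalization or with the mean of probe sets, and 0 to 2 with an array left out (2 without wild-type array 1, 1 without any other wild-type array).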
